A study of Mus musculus with 4 samples.

Results

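The genes described here encode the proteins of the synaptic vesicle and of the machinery that fuses it with the plasma membrane. They were taken by gene symbol, as all synaptotagmins (Syt), synapsins (Syn1 to Syn3), complexins (Cplx), RIM proteins (Rims), Munc13 proteins (Unc13), SV2 proteins, syntaxins (Stx), syntaxin-binding proteins (Stxbp), VAMP proteins and genes named Snap with a number. The array held 65 such genes of 19938 genes with a row of their own, on 74 rows, and each gene was represented by its row with the highest mean over the arrays. The main vesicle SNARE Vamp2 shares its row with a second gene symbol and was not analysed here.

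ICR mice, an outbred strain, received ketamine, an anaesthetic that blocks NMDA receptors for glutamate, at 30 mg/kg once a day by intraperitoneal injection, or normal saline. According to the methods treatment began at 1 month of age and ran for 3 months. RNA labelled as prefrontal cortex from 2 mice of each group was measured on 4 one-colour Affymetrix Mouse Gene 1.0 ST arrays, 1 array for each mouse. By their titles 2 arrays are saline and 2 are ketamine, but the source field of the labels states the opposite for every array. Groups are therefore named by title, and every direction below would turn if the source field were right. The labels give the mice as female and the methods as male.

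The RNA was also checked against genes that mark brain regions. Tbr1, which encodes a transcription factor of excitatory neurons in cortex, read 8.37 and 8.44 on the arrays titled saline and 3.73 and 3.69 on those titled ketamine. The latter values lie under 4.56 and 4.46, the 95th percentiles of 1023 olfactory receptor rows on the same arrays, which serve as the level of genes with no known expression in brain. Ddn, the gene of the dendritic protein dendrin, read 10.41 and 10.44 against 4.12 and 4.68. Of 2 genes of cerebellar granule cells, Cbln3 read 5.75 and 4.52 against 11.13 and 11.17, and Gabra6 read 6.73 and 3.28 against 11.65 and 11.60, with a wide gap between the arrays titled saline. Of 10 granule cell markers 10 were higher on the arrays titled ketamine and their summed linear value was 868 to 1166 against 12757 to 13504, while 6 of 6 Purkinje cell markers were higher and 8 of 10 forebrain projection neuron markers lower (summed 7426 to 7443 against 1598 to 1687). The forebrain list was not uniform. Neurod2 read 6.90 and 6.91 against 7.43 and 6.98 and Emx1 6.18 and 6.59 against 6.13 and 5.91, and neither was called (adjusted p = 0.188 and 0.127 from limma), while Slc17a7, the gene of a vesicular glutamate transporter, was lower but still read 10.04 and 10.02 on the arrays titled ketamine. Of 9 general neuronal markers 4 were higher, 2 lower and 3 not called, with sums of 9093 to 9417 against 9357 to 10220. These marker counts are calls at a limma adjusted p under 0.05, where 23.4% of all tested rows were higher and 9.71% lower. Treatment and brain region cannot be told apart in this design, and fewer cells of a type cannot be told from less RNA per cell.

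Release of transmitter runs through a fixed set of protein parts. Syntaxin and SNAP-25 on the plasma membrane and VAMP on the vesicle, the SNARE proteins, coil together and pull the membranes into contact. Munc13 and RIM proteins ready the vesicle beforehand, complexin holds and assists the assembled SNAREs, and synaptotagmin senses calcium and triggers fusion. Many of these parts exist as related genes used by different neurons, and some family members serve secretion and membrane traffic in cells other than neurons.

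Expression values are log2 RMA values deposited by the authors, differences are group means (titled ketamine minus titled saline) on the log2 scale, and a gene is called where limma, fitted to all 21789 rows with exactly 1 symbol, gave an adjusted p under 0.05. The median difference over all those rows was 0.13, against which differences are to be read. Of the 65 genes, 15 (23.1%) were higher, 14 (21.5%) were lower and 36 were not called. Over all tested rows 23.4% were higher and 9.71% lower. Of the rows no dimmer than the median row, 28.1% were higher and 12.3% lower, and of the 57 vesicle and exocytosis genes there 14 were higher and 13 lower. Past 2-fold, 5 of the 65 were higher and 6 lower, where 3.69% and 2.98% of all tested rows were. The share of these genes called higher was therefore close to the background and the share called lower was above it. The median absolute difference between groups was 0.37 over the 65 genes, against 0.083 between the 2 arrays titled saline and 0.099 between the 2 titled ketamine. Over all tested rows the same medians were 0.26, 0.135 and 0.112.

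Quantile normalization of the 4 arrays, which brought the median difference of all rows to 0.013, gave 12 higher and 17 lower, where 15.2% and 14.1% of all tested rows were called in those directions. Of the 29 calls 26 were kept, and Rims1, Vamp7 and Stx4a lost theirs, while Unc13a, Syt11 and Stxbp5 came to be called lower. Without titled saline array 1 there were 22 calls, with those of Rims1, Stx4a, Sv2b, Syn2, Syt13, Unc13d and Vamp7 lost. Without titled saline array 2 there were 21, with those of Rims1, Rims2, Stx4a, Stx6, Sv2b, Syn2, Syt13 and Vamp7 lost. With either array titled ketamine left out (array 1 or array 2), limma called 0 of the 65 genes, with 30 at an unadjusted p under 0.05 in either fit. No gene called with all 4 arrays changed sign in any of these fits. The exact permutation test of 2 arrays against 2 cannot give a two-sided p below 0.333.

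**Figure D1:**
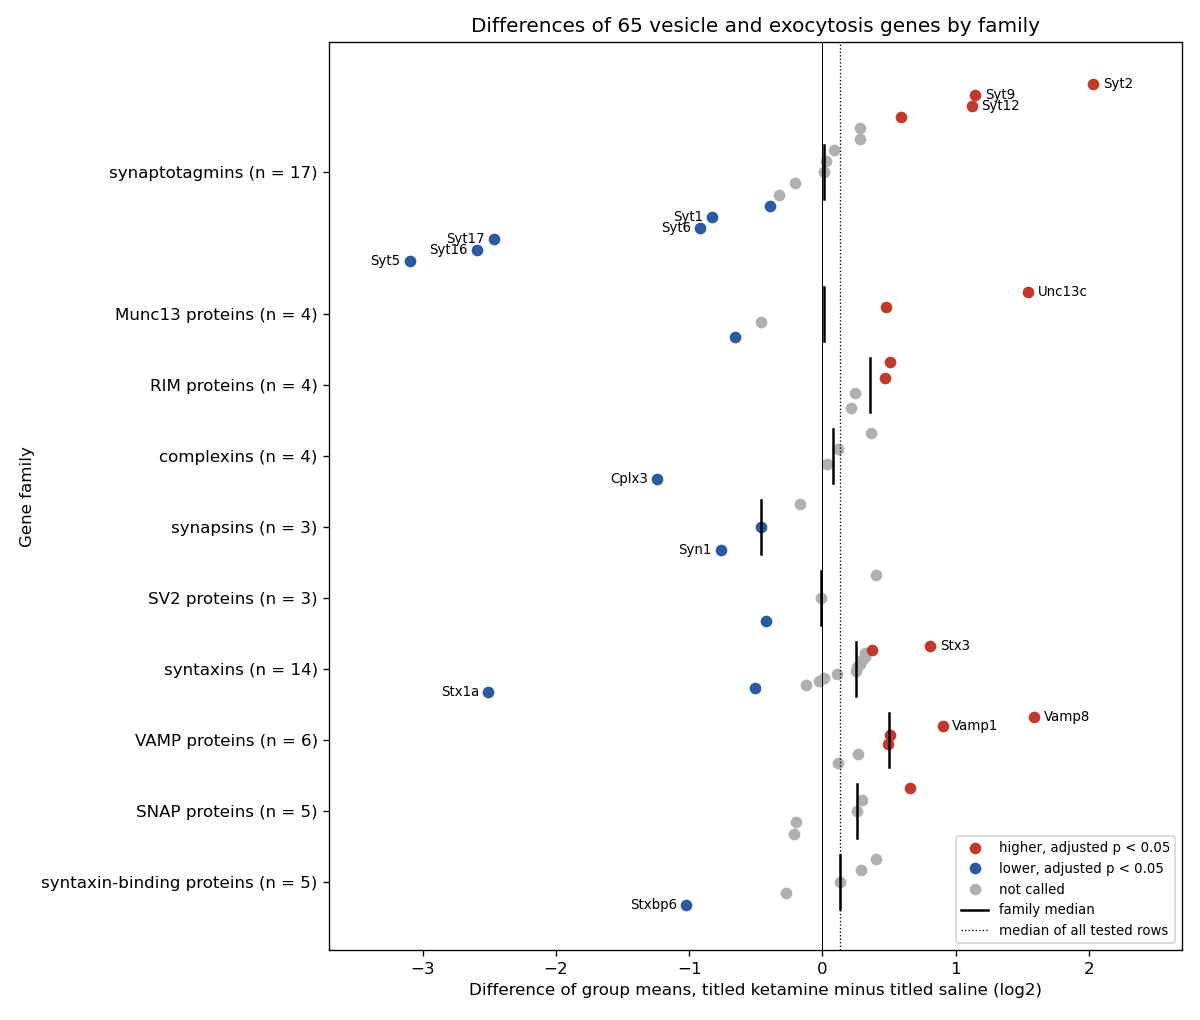
Difference of group means (x axis, log2) of the 65 vesicle and exocytosis genes by family (y axis). Each point is a gene, coloured by its limma call, the solid bar is the family median and the dotted line the median of all tested rows at 0.13. Syt5 lies lowest at -3.10 and Syt2 highest at 2.03, and the synaptotagmins, Munc13 proteins and syntaxins hold genes called in either direction.

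For 5 genes with results described in detail below, the sequence around the annotated transcription start is shown, from 250 bases before to 50 after it, as RefSeq gives it for the mouse build GRCm38.p6. They are the calcium sensors Syt1 and Syt2, the syntaxin Stx1a, the Munc13 gene Unc13c and the synapsin Syn1. Where RefSeq gives 2 windows for a gene (Syt1 and Syt2) the more upstream one is shown. Nothing was measured on these windows here. Capitals mark matches, on either strand, to any of 5 motifs, which are GGGCGG (the GC box of SP1), TGACGTCA (the cyclic AMP response element, CRE), CAGATG (an E-box), TATAAA (the TATA box) and the core of RE1 (the site of the neuronal repressor REST). These matches do not overlap one another in the windows shown.
Syt1, chr10:109010926-109011225, minus strand: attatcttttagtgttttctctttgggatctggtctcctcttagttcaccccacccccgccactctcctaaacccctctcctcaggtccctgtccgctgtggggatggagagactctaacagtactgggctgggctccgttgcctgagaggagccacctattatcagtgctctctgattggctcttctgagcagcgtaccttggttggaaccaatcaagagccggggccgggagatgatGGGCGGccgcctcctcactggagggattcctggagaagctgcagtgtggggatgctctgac
Syt2, chr1:134646362-134646661, plus strand: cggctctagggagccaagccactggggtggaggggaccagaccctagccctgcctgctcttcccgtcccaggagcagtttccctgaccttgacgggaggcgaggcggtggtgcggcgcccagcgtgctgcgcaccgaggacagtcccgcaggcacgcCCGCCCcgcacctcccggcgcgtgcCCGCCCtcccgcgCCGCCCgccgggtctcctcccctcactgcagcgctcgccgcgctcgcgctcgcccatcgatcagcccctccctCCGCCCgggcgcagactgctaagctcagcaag
Stx1a, chr5:135023232-135023531, plus strand: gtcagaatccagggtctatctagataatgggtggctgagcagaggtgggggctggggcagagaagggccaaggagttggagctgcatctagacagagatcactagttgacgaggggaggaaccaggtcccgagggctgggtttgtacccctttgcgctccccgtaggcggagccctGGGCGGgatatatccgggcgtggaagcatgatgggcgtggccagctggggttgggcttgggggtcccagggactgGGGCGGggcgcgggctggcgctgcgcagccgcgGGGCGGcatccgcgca
Unc13c, chr9:73968988-73969287, minus strand: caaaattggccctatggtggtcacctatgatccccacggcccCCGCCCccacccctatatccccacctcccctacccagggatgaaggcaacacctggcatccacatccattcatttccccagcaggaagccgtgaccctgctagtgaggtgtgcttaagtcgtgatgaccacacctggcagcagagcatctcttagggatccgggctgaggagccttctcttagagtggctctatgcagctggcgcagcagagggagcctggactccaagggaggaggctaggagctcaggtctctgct
Syn1, chrX:20920869-20921168, minus strand: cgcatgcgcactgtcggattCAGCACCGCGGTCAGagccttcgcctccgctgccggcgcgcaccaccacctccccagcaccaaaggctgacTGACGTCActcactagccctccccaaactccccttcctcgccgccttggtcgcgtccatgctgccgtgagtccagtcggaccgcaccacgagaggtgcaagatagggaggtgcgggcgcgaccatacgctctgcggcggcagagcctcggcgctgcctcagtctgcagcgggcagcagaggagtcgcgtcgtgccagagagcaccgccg

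The windows of the 2 calcium sensors differ in base composition, with 74.3% G and C for Syt2 and 56.7% for Syt1, where the median of 32851 windows of all genes was 52.7%. The GC box GGGCGG occurred 4 times in the Syt2 window, 3 times in that of Stx1a and once each in those of Syt1 and Unc13c. It was present in 35.7% of all windows and in 43 of 66 windows (65.2%) of the 51 vesicle and exocytosis genes that could be matched. The Syn1 window held no GC box but 1 CRE and 1 RE1 core. The RE1 core was found in 19 of all windows (0.0578%) and, among the vesicle and exocytosis genes, in that of Syn1 alone. The CRE was found in 1.79% of all windows and in 2 of the 66, those of Syn1 and Stxbp3. CAGATG occurred in 17.2% of all windows and 9.09% of the 66, TATAAA in 13.6% and 6.06%, and neither was in a window shown.

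The fast calcium sensors moved in opposite directions. Syt1, the sensor of synchronous release at most forebrain synapses, read 11.77 and 11.71 on the arrays titled saline and 10.96 and 10.87 on those titled ketamine. Both arrays titled ketamine were lower, by 0.83 on average (log2 difference -0.83, standard error 0.107, adjusted p = 0.00152). Syt2, the related fast sensor known from hindbrain, spinal cord and the neuromuscular junction, read 7.70 and 7.55 against 9.61 and 9.71. It was 4.10-fold higher (log2 difference 2.03, standard error 0.113, adjusted p = 5.06e-05). Syt9, also a fast sensor, read 6.83 and 6.90 against 8.01 and 8.02, a log2 difference of 1.15 (adjusted p = 0.000352).

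The gap between Syt2 and Syt1 on the same array is not moved by a shift shared by all genes of that array. It was -4.07 and -4.16 on the arrays titled saline and -1.35 and -1.16 on those titled ketamine, a change of 2.86 on the log2 scale or 7.26-fold (2.77 to 2.95 with any 1 array left out). The groups do not overlap. The exact permutation test gave its smallest p of 0.333, and 0.466 after adjustment over the 7 gene pairs compared.

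Among the other calcium-binding synaptotagmins, 2 of 5 were lower and none was higher, where 9.71% and 23.4% of all tested rows were. Syt5 read 9.49 and 9.51 on the arrays titled saline and 6.43 and 6.38 on those titled ketamine. At a log2 difference of -3.10 (standard error 0.104, adjusted p = 1.68e-05), or 8.55-fold lower, it had the largest difference of the 65 genes. Syt6 read 6.63 and 6.69 against 5.71 and 5.77, a log2 difference of -0.92 (adjusted p = 0.000954). Syt7, the slow calcium sensor of facilitation and asynchronous release, read 8.01 and 8.03 against 7.90 and 7.73, and its difference of -0.20 (standard error 0.113) was not called (adjusted p = 0.206). Syt3 and Syt10 were not called either, with differences of 0.0099 and 0.29.

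Of 9 synaptotagmins that bind little or no calcium, 2 were higher, 3 lower and 4 not called, against 23.4% higher and 9.71% lower over all tested rows. Syt16 read 7.85 and 7.88 on the arrays titled saline and 5.07 and 5.48 on those titled ketamine, 6.02-fold lower (log2 difference -2.59, adjusted p = 5.61e-05). Syt17, known as B/K protein, read 8.28 and 8.17 against 5.56 and 5.95, 5.52-fold lower (log2 difference -2.47, adjusted p = 6.75e-05). For both genes the 2 arrays titled ketamine differed by about 0.4 from each other, which is far less than the distance between the groups. Syt12 went the other way, with 7.11 and 7.13 against 8.35 and 8.14 (log2 difference 1.12, adjusted p = 0.000614). Smaller calls were Syt4, a synaptotagmin of dense-core vesicles, at 0.59 (adjusted p = 0.00659) and Syt13 at -0.39 (adjusted p = 0.0265). Syt8, Syt11, Syt14 and Syt15 were not called, with Syt11 lowest among them at -0.32 (adjusted p = 0.065).

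**Figure D2:**
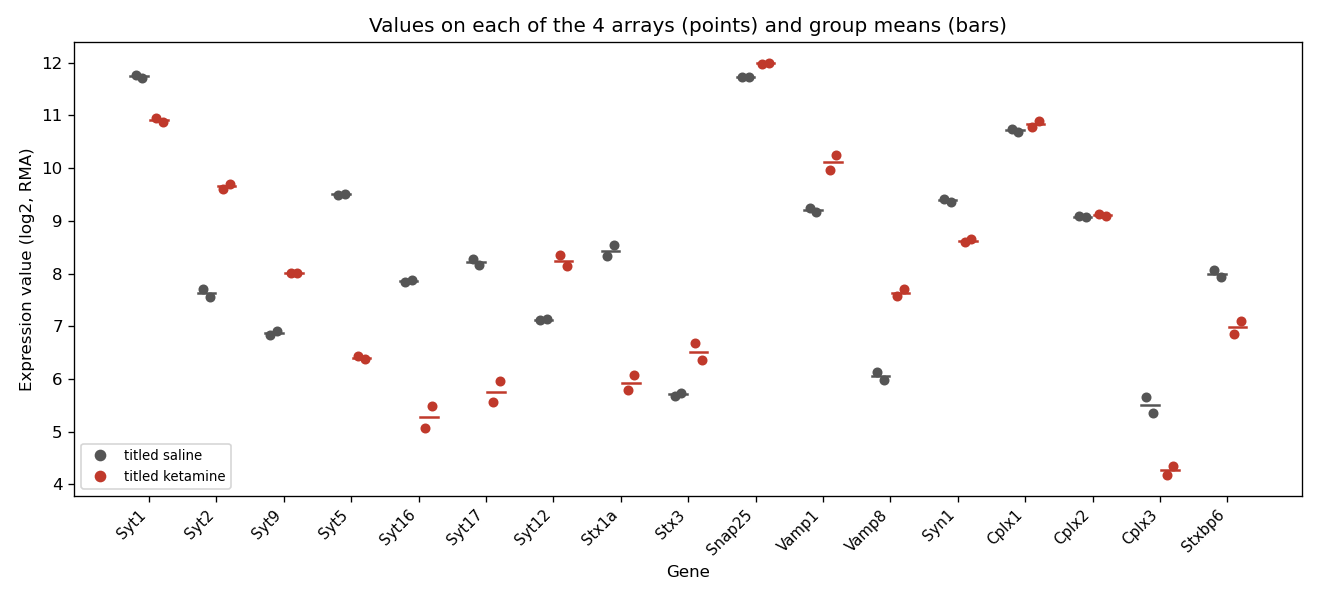
Log2 expression (y axis) of 17 vesicle and exocytosis genes (x axis) on each array, grey for titled saline and red for titled ketamine, with a point for each array and a bar at each group mean. Syt2 rises from 7.70 and 7.55 to 9.61 and 9.71 while Syt1 falls from 11.77 and 11.71 to 10.96 and 10.87, and the complexins Cplx1 and Cplx2 differ little between the groups.

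Of the SNARE proteins, syntaxin 1A showed the largest difference. Stx1a, a partner of SNAP-25 on the presynaptic membrane, read 8.33 and 8.54 on the arrays titled saline and 5.79 and 6.07 on those titled ketamine. It was 5.68-fold lower (log2 difference -2.51, standard error 0.138, adjusted p = 4.8e-05). Stx3, the syntaxin of ribbon synapses and of postsynaptic membrane delivery, was higher, with 5.68 and 5.74 against 6.68 and 6.36 (log2 difference 0.81, adjusted p = 0.00426). Stx4a, the widely expressed plasma membrane syntaxin 4, was at 0.38 (adjusted p = 0.0441, and 0.143 after quantile normalization). Stx2, Stx11 and Stx19 were not called, and Stx19 read below the olfactory receptor level on all 4 arrays.

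Of the 8 syntaxins of inner membranes, which serve the Golgi apparatus, endosomes and autophagosomes, 1 was lower and none was higher. Over all tested rows 9.71% were lower and 23.4% higher. The median absolute difference of the 8 genes was 0.28, near the 0.26 of all tested rows. Stx6, a syntaxin of the trans-Golgi network, read 8.03 and 8.28 against 7.61 and 7.70, a log2 difference of -0.51 (adjusted p = 0.0208). The other 7 were not called, with differences from -0.022 for Stx12 to 0.32 for Stx5a. Their median with Stx6 was 0.255, above the 0.13 of all tested rows.

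Snap25 read 11.74 and 11.73 on the arrays titled saline and 11.983 and 11.996 on those titled ketamine. Both were higher than either array titled saline, as was the case for 10538 of all 21789 tested rows. The log2 difference of 0.26 (standard error 0.103) was not called (adjusted p = 0.0961, and 0.0463 in a fit to rows no dimmer than the median row). Its widely expressed relative Snap23 read 6.68 and 6.68 against 7.37 and 7.32 and was higher by 0.66 (adjusted p = 0.00348). Snap29 and Snap47 were at 0.29 and -0.21 (adjusted p = 0.0965 and 0.186). Snap91 carries the name but encodes AP180, an adaptor of clathrin-mediated vesicle retrieval, and was at -0.20 (adjusted p = 0.186). The gap between Snap47 and Snap25 changed by -0.47, with -1.117 and -1.004 on the arrays titled saline and -1.60 and -1.47 on those titled ketamine (exact permutation p = 0.333, adjusted p = 0.466).

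Of 6 VAMP genes 4 were higher and none was lower, 3 and none after quantile normalization. Over all tested rows 23.4% were higher and 9.71% lower, and 15.2% and 14.1% after quantile normalization. Vamp1, the vesicle SNARE synaptobrevin 1 known from brainstem and spinal cord neurons, read 9.24 and 9.17 on the arrays titled saline and 9.97 and 10.25 on those titled ketamine. It was 1.87-fold higher (log2 difference 0.90, standard error 0.129, adjusted p = 0.00237). Vamp8, endobrevin, acts in late endosomes and in granule secretion outside neurons. It read 6.12 and 5.97 against 7.57 and 7.71, 3.01-fold higher (log2 difference 1.59, adjusted p = 0.000137). Vamp3, cellubrevin, was at 0.51 (adjusted p = 0.00963) and Vamp7, a SNARE of late endosomes and neurite growth, at 0.49 (adjusted p = 0.0375, and 0.0727 after quantile normalization). Vamp4 and Vamp5 were not called, at 0.27 and 0.12.

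Munc13 proteins make docked vesicles ready for fusion by opening syntaxin. Unc13c encodes Munc13-3, the form known from cerebellar granule cells, and has 7 rows on the array. Its row with the highest mean read 8.33 and 8.29 on the arrays titled saline and 9.81 and 9.91 on those titled ketamine, 2.92-fold higher (log2 difference 1.55, standard error 0.107, adjusted p = 0.000113). All 7 rows were called higher, with differences from 1.36 to 1.58 across rows that differ widely in level. The rows are probes of 1 gene on the same 4 arrays and not further replicates.

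Unc13a encodes Munc13-1, the main form of forebrain excitatory synapses. It read 8.35 and 8.39 against 8.13 and 7.69, a log2 difference of -0.46 that was not called (adjusted p = 0.058, and 0.0271 after quantile normalization). Unc13a was also called lower with array median centring, the replicate number as a block, both filters on dim rows and trend and robust moderation. The limma adjusted p there ran from 0.0124 to 0.0422, and was 0.132 in a fit to all rows of the table. The second row of Unc13a gave -0.52 (adjusted p = 0.0511) and the dimmest row 0.19 (adjusted p = 0.204), so that the rows disagree in sign. Unc13b, Munc13-2, read 6.53 and 6.64 against 5.97 and 5.89, a log2 difference of -0.66 (adjusted p = 0.00446). Unc13d, the form of blood cell granule secretion, was at 0.48 (adjusted p = 0.0155, 0.0525 under array median centring and 0.0688 without titled saline array 1) with values from 4.35 to 4.92, not far above the olfactory receptor level. The gap between Unc13c and Unc13a was -0.015 and -0.097 on the arrays titled saline and 1.68 and 2.22 on those titled ketamine, a change of 2.01 or 4.02-fold (exact permutation p = 0.333, adjusted p = 0.466).

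**Figure D3:**
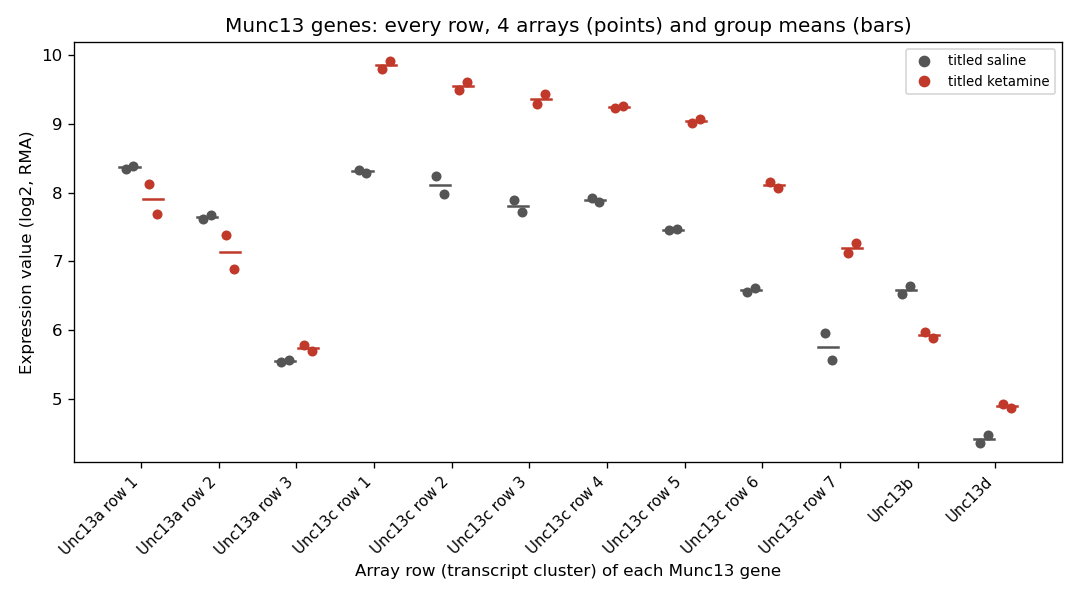
Log2 expression (y axis) on every array row of the 4 Munc13 genes (x axis), grey for titled saline and red for titled ketamine. Points are arrays, bars group means, and rows of a gene are ordered by their mean. All 7 Unc13c rows lie higher on the arrays titled ketamine by 1.36 to 1.58, while 2 of 3 Unc13a rows lie lower.

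RIM proteins hold calcium channels and vesicles together at the active zone. Rims1 read 9.19 and 9.16 on the arrays titled saline and 9.80 and 9.48 on the ketamine-titled pair, a log2 difference of 0.47 (adjusted p = 0.0339, 0.0808 after quantile normalization and 0.0882 in the fit to all rows). Rims2 read 8.70 and 8.57 against 9.19 and 9.10, a log2 difference of 0.51 (adjusted p = 0.0125, and 0.0658 without titled saline array 2). The short forms Rims3 and Rims4, which lack the domains that bind the vesicle, were not called at 0.21 and 0.25 (adjusted p = 0.267 and 0.107). The gap between Rims3 and Rims1 changed by -0.26, and by 0.051 without titled ketamine array 1 (exact permutation p = 0.667).

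Complexins clamp and assist the assembled SNAREs. Cplx1 read 10.74 and 10.69 against 10.77 and 10.90, and Cplx2 9.09 and 9.07 against 9.13 and 9.10. Neither was called (differences 0.12 and 0.038, standard errors 0.109 and 0.104, adjusted p = 0.439 and 0.803), and once the arrays were centred on their medians they stood at -0.018 and -0.098. The gap between them changed by -0.080 (exact permutation p = 0.667). Cplx3, a complexin of retinal ribbon synapses that is also found in the deepest layer of cortex, read 5.66 and 5.35 against 4.18 and 4.35, a log2 difference of -1.24 (adjusted p = 0.000898). Its values on the arrays titled ketamine lie under the olfactory receptor level there, so that the size of its difference is not resolved. Cplx4, the other ribbon synapse complexin, lay under that level on all 4 arrays.

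Synapsins tether vesicles in the reserve pool, and for all 3 synapsin genes the arrays titled ketamine read below those titled saline. The same held for 4687 of all 21789 tested rows, while 10538 lay wholly above and 6564 overlapped. Syn1 read 9.41 and 9.37 against 8.61 and 8.65, 1.70-fold lower (log2 difference -0.76, standard error 0.104, adjusted p = 0.00199). Syn2 read 10.23 and 10.25 against 9.75 and 9.80 (log2 difference -0.46, adjusted p = 0.0145, and 0.053 and 0.0608 without titled saline array 1 or 2). Syn3 read 7.06 and 6.90 against 6.81 and 6.82, and its difference of -0.17 was not called (adjusted p = 0.292). The gap between Syn2 and Syn1 was 0.82 and 0.885 on the arrays titled saline and 1.14 and 1.16 on those titled ketamine, a change of 0.30 (exact permutation p = 0.333, adjusted p = 0.466).

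SV2 proteins are glycoproteins of the synaptic vesicle membrane. Sv2a, the target of the antiepileptic levetiracetam, read 10.75 and 10.71 against 10.74 and 10.70, and its difference of -0.012 (standard error 0.104) was not called (adjusted p = 0.943). Sv2b read 10.50 and 10.52 against 10.06 and 10.13, a log2 difference of -0.42 (adjusted p = 0.0212, 0.0538 in a fit to all rows of the table, and 0.0646 and 0.0747 without titled saline array 1 or 2). Sv2c, the form enriched in the basal ganglia, read 7.56 and 7.40 against 7.67 and 8.10, where the arrays titled ketamine differed by 0.43 from each other, and its difference of 0.41 was not called (adjusted p = 0.0919). The gap between Sv2b and Sv2a changed by -0.41, with groups that do not overlap (exact permutation p = 0.333, adjusted p = 0.466).

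**Figure D4:**
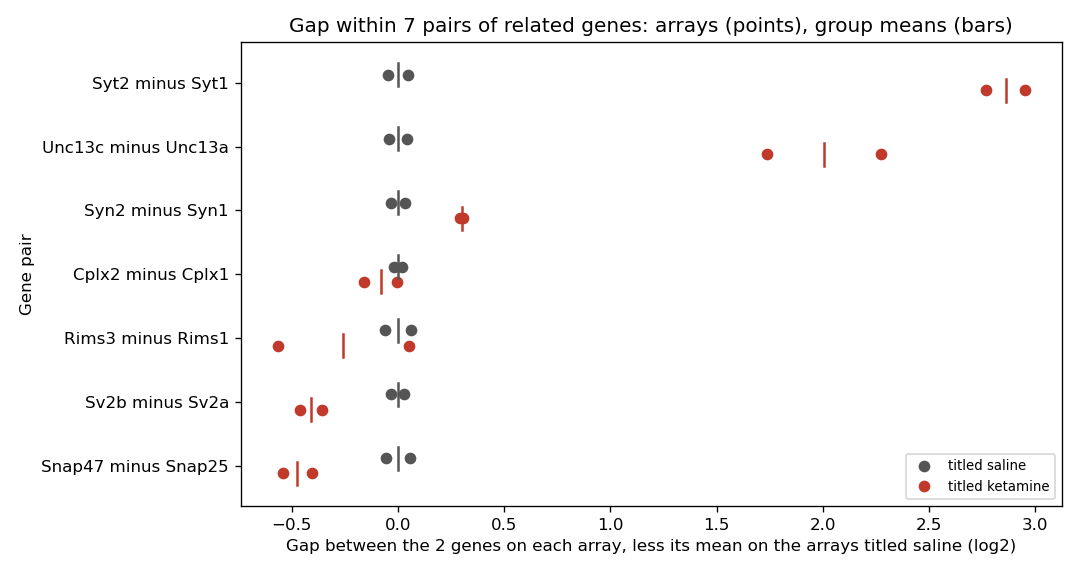
Gap between 2 related genes on the same array (x axis, log2, less the mean gap of the arrays titled saline) for 7 gene pairs (y axis), grey for titled saline and red for titled ketamine. Points are arrays and bars group means. The gap changed by 2.86 for Syt2 and Syt1 and by 2.01 for Unc13c and Unc13a, and by less than 0.5 for the other pairs.

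Of the 5 syntaxin-binding protein genes 1 was lower and none was higher, where 9.71% and 23.4% of all tested rows were. Stxbp6, amisyn, which competes with VAMP for the plasma membrane SNAREs, read 8.06 and 7.93 on the arrays titled saline and 6.85 and 7.10 on those titled ketamine, 2.03-fold lower (log2 difference -1.02, adjusted p = 0.00134). Stxbp5, tomosyn, also an inhibitor of SNARE assembly, read 9.04 and 8.91 against 8.71 and 8.69. Its difference of -0.27 was not called (adjusted p = 0.0929, and 0.0255 after quantile normalization). Stxbp2 and Stxbp3, which encode widely expressed partners of syntaxins, were at 0.13 and 0.41 (adjusted p = 0.374 and 0.075). Stxbp4 was at 0.29 on its kept row (adjusted p = 0.14) and at 0.51 on its second row (adjusted p = 0.0219).

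A further list held 61 genes of the vesicle cycle outside these families, of which 58 had a row. Of these, 12 (20.7%) were higher, 15 (25.9%) lower and 31 not called, with a median difference of 0.025. Over all tested rows 23.4% were higher, a share near that of the list, and 9.71% lower, a smaller share. With quantile-normalized values the list gave 9 higher and 18 lower, against 15.2% and 14.1% of all tested rows. Scaffold genes of the active zone were called in both directions. Erc2, Rimbp2 and the calcium-binding protein gene Doc2a were lower, at -1.69, -1.84 and -1.70, as was the secretory GTPase gene Rab27b at -1.68. Erc1 and the liprin genes Ppfia1 and Ppfia4 were higher, at 1.26, 1.10 and 1.00. Cadps2, a dense-core vesicle priming factor abundant in cerebellar granule cells, was higher at 1.66 (8.43 and 8.27 against 10.18 and 9.84). Among the 31 genes not called were the vesicle protein gene Syp at -0.25, the SNARE-recycling ATPase gene Nsf at -0.21, the dynamin gene Dnm1 at 0.0445 and the clathrin heavy chain gene Cltc at 0.045 (adjusted p = 0.0996, 0.154, 0.77 and 0.768).

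These differences stand beside the marker values given at the start. Granule and Purkinje cell markers were higher and 8 of 10 forebrain projection neuron markers lower on the arrays titled ketamine. On the same arrays the 5 of the 65 genes past 2-fold higher were Syt2, Vamp8, Unc13c, Syt9 and Syt12. The 6 past 2-fold lower were Syt5, Syt16, Stx1a, Syt17, Cplx3 and Stxbp6. Past 2-fold, 3.69% of all tested rows were higher and 2.98% lower. For the marker counts, which are limma calls, 23.4% of all tested rows were called higher and 9.71% lower. Of 6 microglial markers 6 were lower (summed 886 to 921 against 469 to 529). Of 6 choroid plexus markers 5 were higher (summed 3172 to 3231 against 4271 to 5607). Of 6 astrocyte markers 2 were higher and 1 lower (summed 5394 to 5562 against 6649 to 6715), and of 5 oligodendrocyte markers none was called (summed 3859 to 4029 against 3868 to 4963). The part of these cell types in the values of the vesicle and exocytosis genes was not tested.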

How the data were processed

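RNA labelled as prefrontal cortex from 4 mice was measured on Affymetrix Mouse Gene 1.0 ST arrays, 1 per mouse. The values deposited by the authors are log2 expression values, computed with RMA in Expression Console software at the core-exon level. RMA corrects background, normalizes between arrays and summarises the probes of each transcript cluster, which compresses dim values and can remove a shift shared by most genes. The medians of the tested rows still ranged from 5.90 to 6.04. Software version and genome build: not given in the sources used here. The design text also names the Exon Array Computational Tool.

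Of 35556 rows, 21789 had exactly 1 symbol in the platform annotation, 1621 several and 12146 none. Rows with 1 symbol were tested with limma 3.58.1 in R 4.3.3 (lmFit and eBayes, 2 residual degrees of freedom) with Benjamini-Hochberg adjustment over all of them. In simulated data the test called 90 of 100 rows changed by 1 on the log2 scale and 8 of 21589 unchanged rows. That simulation had independent noise and far fewer changed rows than were called here, so it does not bear on the calls in these data. No array test is named in the methods. The members, gene lists, gene pairs and motifs were chosen with earlier results of these data known, and the pair Vamp1 and Vamp2 could not be formed. Some items are not reported here. Values were given for the 15 members with the largest differences, for all synapsins, complexins, RIM, Munc13 and SV2 genes and for central SNARE and sensor genes, and for the 4 further vesicle cycle genes with the largest call each way. Other members were named where they complete a family, and Syp, Nsf, Dnm1 and Cltc were chosen with their values in view. The number of arrays limits the precision. Alternatives covered scaling, filters, rows, moderation, the replicate number as a block, each array left out and the study's 1.3-fold limit.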

Additional observations from a re-analysis of the deposited data

How the results depend on the processing

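The counts for the 65 genes, 15 higher and 14 lower, stayed within 1.5 times of these values under quantile normalization, array median centring, both filters on dim rows, a fit to all rows of the table, the row with the lowest mean, the replicate block and the 1.3-fold limit. With trend and robust moderation 23 were higher. Leaving out 1 array gave 0 to 11 higher and 0 to 11 lower, and for the further vesicle cycle genes 0 to 8 higher and 0 to 9 lower, the 0 in each case with either array titled ketamine left out. A fit without 1 array takes the spread of the lone array from the other group. Median centring gave 7 of the further vesicle cycle genes as higher. Of the 65 differences, 9 changed sign under median centring, 8 under quantile normalization, 5 without titled saline array 1, 1 without titled saline array 2 and 2 with either one of the arrays titled ketamine left out, all in genes that were not called. For the genes named by rule the changes of sign were Cplx1 at -0.018 and Cplx2 at -0.098 under median centring, Cplx2 at -0.070 under quantile normalization, Sv2a from -0.0319 without titled saline array 2 to 0.0082 without titled ketamine array 2 and 0.0083 without titled saline array 1, and Unc13a at 0.19 on its dimmest row. With any 1 array left out the changes of the gaps lay from 2.77 to 2.95 for Syt2 and Syt1, 1.74 to 2.27 for Unc13c and Unc13a, 0.27 to 0.33 for Syn2 and Syn1, -0.16 to -0.0018 for Cplx2 and Cplx1, -0.56 to 0.051 for Rims3 and Rims1, -0.46 to -0.36 for Sv2b and Sv2a and -0.54 to -0.41 for Snap47 and Snap25. The cause of these changes was not tested.

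The replicate numbers in the titles mark no shared animal, and the deviations of same-numbered arrays correlated at 0.034 over all tested rows and at -0.339 over the 65 genes. With the replicate number as a block, 18 of the 65 genes were higher and 15 lower, and all 29 calls were kept. The array values carry no read depth. Cplx4 and Stx19 on all arrays, and Cplx3 on those titled ketamine, lay within the range of the olfactory receptor rows.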

Other observations

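Within the groups, the largest difference between the 2 arrays titled saline among the 65 genes was that of Vamp5, a VAMP protein of muscle, at 5.61 and 6.02. Between the 2 arrays titled ketamine it was that of Sv2c, at 7.67 and 8.10. Of the further vesicle cycle genes, the synuclein gene Sncg had values of 7.73 and 7.22 in the group titled saline and 7.86 and 8.87 in the group titled ketamine, and its log2 difference of 0.89 was not called (adjusted p = 0.0686 from limma). Pearson correlation over the 65 genes was 0.997 within the group titled saline, 0.995 within the group titled ketamine and 0.874 to 0.895 between arrays of different groups. Over all tested rows the last range was 0.959 to 0.969. These are correlations across genes, which are not independent replicates.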
